A study of Homo sapiens with 40 samples.

Results

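The RNA-seq arm of the study set control A549 cells beside A549 cells whose SETDB1 gene had been knocked out with CRISPR/Cas9. A549 is an established human line from an adenocarcinoma of the lung. Members were taken by their labels, as the control and the knockout RNA-seq samples, and came to 6 of the 40 samples of the series, 3 libraries per genotype. The labels do not say whether the control cells were mock-treated or untreated, or whether the knockout cells came from a single clone, and they list no treatment of either genotype beyond the knockout. They also do not say that the replicates came from separate cultures, so p-values measure only the spread between these libraries, which may be technical. The libraries were built from total RNA with a stranded kit. The description below is about the genes that were on in a single genotype, the non-coding RNAs, the functional classes of the strongest changes and the dependence of the changes on the control level.

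The SETDB1 enzyme trimethylates lysine 9 of histone H3, and HP1 proteins bind this modification (H3K9me3) on silent chromatin. KRAB zinc finger proteins bind DNA and recruit SETDB1 through the scaffold protein KAP1 (TRIM28), and the best known targets are endogenous retroviruses, the KRAB zinc finger gene clusters themselves, the clustered protocadherins and some imprinted and germline genes. Many of these targets are silent in differentiated cells, so loss of the enzyme is commonly read out as transcripts that appear where there were none.

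The knockout target itself, SETDB1 (ENSG00000143379, chromosome 1), stood at 37.5, 39.6 and 38.7 CPM in control and 23.4, 21.2 and 21.1 CPM in knockout libraries. CPM are counts scaled to a common library size by TMM, a normalisation to the bulk of genes. Every knockout library lay below every control library, and the log2 fold change of knockout over control was -0.82, SE 0.06, adjusted p 1.70e-12 (SE is its standard error). The transcript was not absent, and a count over the whole gene does not test whether the remaining RNA encodes protein. Libraries held 18065062 to 29338718 counts in control and 22548748 to 48364919 in knockout cells, of which mitochondrially encoded genes took 21.9% to 24% and 21% to 22.6%. Summed CPM of 15 epithelial A549 markers ranged from 17164 to 17674 in control and from 23001 to 23808 in knockout libraries, with 5 markers under 1 CPM in every library, the surfactant genes SFTPB and SFTPC and the lung factor NKX2-1 among them, and SFTPA1 at 0. The marker list did not move as a whole: of its 10 tested members 8 rose and 2, AKR1B10 and AKR1C1, fell. Fibroblast markers summed to 4.81 to 5.02 and 4.98 to 5.46 CPM, and immune markers to 5.61 to 6.02 and 4.45 to 5.79 CPM. The fibroblast sum hid opposite changes of its 3 tested members. PDGFRA fell from a mean of 1.30 to 0.128 CPM, while COL3A1 rose from 0.320 to 0.873 CPM and COL1A1 from 3.10 to 3.83 CPM. Endothelial markers summed to 0.297 to 0.412 CPM in control and 4.15 to 5.4 CPM in knockout libraries, nearly all of it CDH5, while KDR, VWF and TEK stayed under 1 CPM in every library.

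Of 17767 genes tested, 5825 (32.8%) were higher and 5332 (30%) lower in knockout cells at a Benjamini-Hochberg adjusted p under 0.05 (edgeR). At a minimum of 2-fold, 1751 genes were higher (9.86%) and 862 lower (4.85%), and at a minimum of 8-fold 526 were higher (2.96%) and 66 lower (0.371%). The genotypes' CPM did not overlap for 65.8% of all genes tested. The strongest changes were the most one-sided, but their excess came mostly from genes under 1 CPM in control, where large falls are hard to detect. By mean control CPM, 310 were higher and 0 lower by 8-fold under 0.1 CPM, and 160 and 7 between 0.1 and 1 CPM. Between 1 and 10 CPM these were 51 and 36, between 10 and 100 CPM 5 and 21, and at 100 CPM or more 0 and 2. Of the 526 genes at least 8-fold higher, 91 were protein-coding zinc finger genes, 20 were clustered protocadherins, 248 were other protein-coding genes, 53 were long non-coding RNAs and 41 were pseudogenes. Of the 66 genes at least 8-fold lower, 55 were protein-coding genes outside both families and 2 were long non-coding RNAs. All 17767 genes tested held 504 protein-coding zinc finger genes, 47 clustered protocadherins, 12634 other protein-coding genes, 1364 long non-coding RNAs and 968 pseudogenes.

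Genes that were silent in one genotype and transcribed in the other were then listed. A gene was called on in the knockout only if it had at most 2 counts summed over the 3 control libraries and at least 10 counts in each knockout library, and on in the control only under the reverse rule. These genes were chosen by their values, so what follows is a description with no test. In the knockout only, 234 genes were on. They came from 33980 genes with at most 2 control counts, of which they were 0.689%. Of the 234 genes, 134 had no control count at all, 56 had 1 and 44 had 2. Just outside the rule, 39 genes with 3 control counts, 13 with 4 and 32 with 5 were on in every knockout library. In the control only, 2 genes were on, FAM133A and KCNQ5, and 4, 1 and 2 genes lay just outside with 3, 4 and 5 knockout counts. The second number was small and moved: 5 genes met the rule after scaling counts to equal depth. With a library left out, which also shortens the sums, 9 met it without knockout replicate 2, and 4 without knockout replicate 1, knockout replicate 3 or control replicate 2.

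The genes on in the knockout only reached a mean of 0.390 to 131 CPM in knockout libraries, with a median of 1.61 CPM, and 148 of them reached 1 CPM and 31 reached 10 CPM. CPM are not corrected for gene length, so the order of genes by CPM is not an order of transcript numbers. Of the 234 genes, 219 passed the filter on low counts and entered the test. A symbol was found for 181 of the 234. By type, 48 were protein-coding zinc finger genes, 4 were clustered protocadherins, 75 were other protein-coding genes, 24 were long non-coding RNAs, 31 were pseudogenes and 53 had no type in RefSeq, with 1 clustered protocadherin counted among the pseudogenes too. All 62486 gene IDs, silent or not, held 555 protein-coding zinc finger genes, 59 clustered protocadherins and 18486 other protein-coding genes. They also held 5216 long non-coding RNAs, 12834 pseudogenes and 23255 without a type. Of the 181 genes with a place on a RefSeq chromosome, 81 lay on chromosome 19. That chromosome held 1137 of the 17767 genes tested, a total that includes genes without a place and few genes silent in control.

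**Figure D1:**
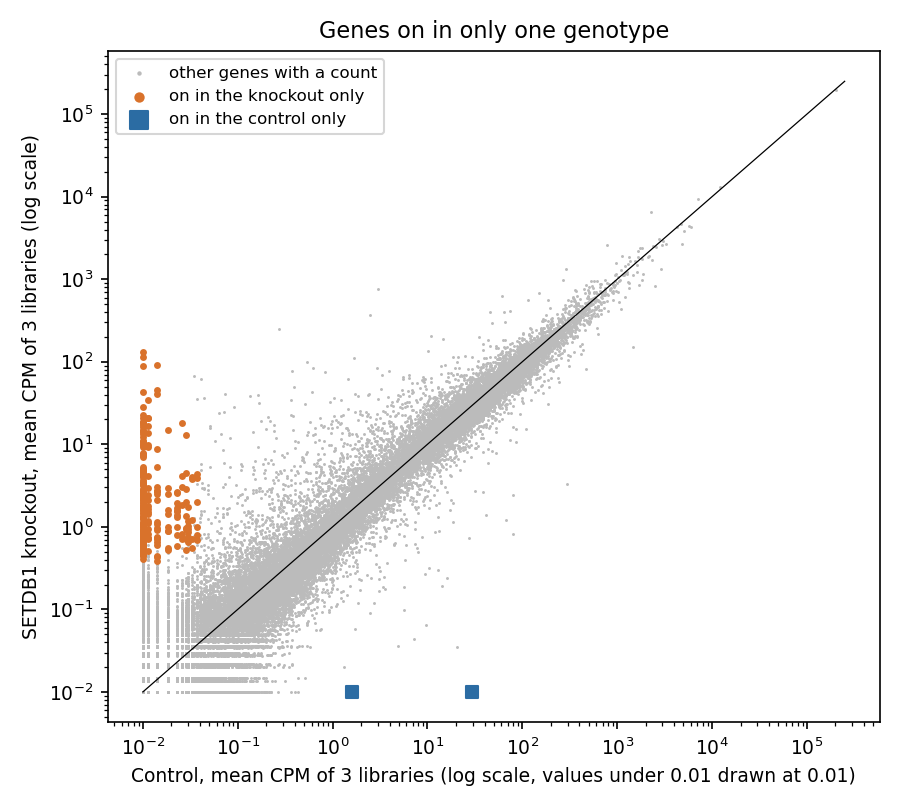
Mean CPM of 3 control libraries (x axis) against mean CPM of 3 knockout libraries (y axis), both on a log scale with values under 0.01 drawn at 0.01, for all genes with a count. The 234 genes on in the knockout only lie at the left edge and reach 131 CPM, and the 2 genes on in the control only sit at the lower edge.

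Promoter windows of RefSeq (GRCh38.p14, 250 bases before to 50 after the annotated start) are shown for the zinc finger gene with the highest knockout CPM, for the leading pair of other genes on in the knockout only that have a single window, leaving out MAGE genes, and for both genes on in the control only, because these are the loci at which RNA appeared or vanished. Capitals mark each CG dinucleotide, which reads the same on both strands and is the site of DNA methylation in mammals. The windows are ZNF486 at chr19:20166964-20167263 (plus strand), NDN at chr15:23687256-23687555 (minus strand), PCDH7 at chr4:30720119-30720418 (plus strand), FAM133A at chrX:93673956-93674255 (plus strand) and KCNQ5 at chr6:72621814-72622113 (plus strand).
ZNF486: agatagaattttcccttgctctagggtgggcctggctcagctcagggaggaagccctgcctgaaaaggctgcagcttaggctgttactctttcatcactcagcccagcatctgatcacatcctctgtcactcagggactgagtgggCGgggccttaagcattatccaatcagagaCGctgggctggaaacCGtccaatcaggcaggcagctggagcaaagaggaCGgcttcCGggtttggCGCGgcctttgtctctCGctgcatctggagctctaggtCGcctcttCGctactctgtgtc
NDN: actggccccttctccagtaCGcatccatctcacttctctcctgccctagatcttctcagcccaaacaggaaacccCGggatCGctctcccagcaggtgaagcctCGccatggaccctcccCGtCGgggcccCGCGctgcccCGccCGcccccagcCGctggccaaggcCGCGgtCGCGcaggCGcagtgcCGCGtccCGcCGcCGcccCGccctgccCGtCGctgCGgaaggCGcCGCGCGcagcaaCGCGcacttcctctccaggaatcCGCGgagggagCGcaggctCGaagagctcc
PCDH7: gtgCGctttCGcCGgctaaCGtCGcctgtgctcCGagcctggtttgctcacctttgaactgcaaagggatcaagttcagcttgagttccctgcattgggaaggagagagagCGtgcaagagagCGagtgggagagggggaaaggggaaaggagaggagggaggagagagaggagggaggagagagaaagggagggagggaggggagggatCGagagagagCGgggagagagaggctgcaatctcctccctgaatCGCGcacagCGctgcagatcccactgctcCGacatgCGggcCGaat
FAM133A: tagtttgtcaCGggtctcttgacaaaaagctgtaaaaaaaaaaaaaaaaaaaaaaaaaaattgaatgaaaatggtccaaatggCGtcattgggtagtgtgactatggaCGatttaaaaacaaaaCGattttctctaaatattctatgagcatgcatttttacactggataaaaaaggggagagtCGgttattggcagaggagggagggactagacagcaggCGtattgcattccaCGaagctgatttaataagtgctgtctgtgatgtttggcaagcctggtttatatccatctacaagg
KCNQ5: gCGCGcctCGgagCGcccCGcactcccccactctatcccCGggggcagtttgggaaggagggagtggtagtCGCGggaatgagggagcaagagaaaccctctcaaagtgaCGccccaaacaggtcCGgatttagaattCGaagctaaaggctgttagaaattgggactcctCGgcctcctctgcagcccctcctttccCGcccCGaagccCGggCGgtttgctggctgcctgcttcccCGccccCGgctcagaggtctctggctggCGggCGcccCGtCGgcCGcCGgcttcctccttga
They hold 10, 35, 16, 7 and 24 CG dinucleotides in that order. Over the first window of 27305 genes in the RefSeq table, 95.8% hold at least 1 CG and the median is 14, with quartiles of 3 and 28. A window was found for 37 of the 48 zinc finger genes and 60 of the 78 other protein-coding genes on in the knockout only (77.1% and 76.9%). The share over all protein-coding genes was 80.0%. Some genes lacked a window, and CG content was not compared between groups.

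Zinc finger genes mostly came on as neighbours, and other genes mostly singly. KRAB zinc finger genes encode DNA-binding repressors and lie in tandem clusters. Of 89 protein-coding zinc finger genes with at most 2 control counts, 48 (53.9%) were on in the knockout, while 78 of 4095 other protein-coding genes with so few control counts were (1.90%). Of the 48 zinc finger genes, 35 had another gene of the 126 protein-coding genes on in the knockout only as the next protein-coding gene on its chromosome, and the longest unbroken run held 10 genes. Of the 78 others, 4 had such a neighbour.

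ZNF486 (ENSG00000256229, chromosome 19), whose window is printed above, was counted at 135, 128 and 130.5 CPM in knockout libraries, at least 3095-fold higher when set against a floor of 3 counts summed over the control group. ZNF888 and ZNF208 on chromosome 19 and ZNF727 on chromosome 7 likewise had no control count and reached 114 ± 4.51 CPM (mean ± SD, n = 3 libraries, as with every ± below), 43.4 ± 2.88 CPM and 89.0 ± 4.11 CPM. These genes have close paralogs, and how reads shared between copies were counted is not given in the sources used here.

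Among the genes without a zinc finger name, 113 were placed on a chromosome and 25 of them lay on chromosome 19. Of all 17767 genes tested, zinc finger genes included, 1137 lay there, but few of the genes tested were silent in control. MAGEA6 (ENSG00000197172), a cancer-testis gene of the X chromosome with nearly identical copies, was counted at 27.3, 27.8 and 29.1 CPM in knockout libraries, at least 662-fold higher. NDN (ENSG00000182636, chromosome 15), the imprinted gene that encodes necdin, a growth suppressor of neurons, was counted at 9.82, 11.5 and 11.5 CPM in knockout libraries, at least 258-fold higher. PCDH7 (ENSG00000169851, chromosome 4), a protocadherin that lies outside the clusters, was counted at 6.64, 7.81 and 6.82 CPM in knockout libraries, at least 167-fold higher. All 3 of these genes were at 0 in every control library, and the rule itself kept the genotypes from overlapping.

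CAVIN3 (ENSG00000170955, chromosome 11), a coat protein of caveolae, had 1 control count, in replicate 3, and 19.4, 19 and 23.6 CPM in knockout libraries; the ratio of counts per effective library size was 1427 with an exact 95% counting interval of 256 to 56387. Without control replicate 3, its fitted log2 fold change moved from 10.10 to 12.12, so the size of this change cannot be stated closely. MECOM (ENSG00000085276, chromosome 3), a zinc finger transcription factor of blood stem cells and some cancers, also had 1 control count, in the same library, and 14, 13.2 and 13.9 CPM in knockout libraries, a ratio of 959 with an interval of 172 to 37926. The intervals and floors cover counting error only.

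Further genes on in the knockout only were picked for mention after their values were seen. Among regulators of transcription, FOXP2 reached 2.55 ± 0.476 CPM and SATB1, an organiser of chromatin in T cells, 2.50 ± 0.217 CPM. Among surface proteins and transporters, the tetraspanin TSPAN8 reached 4.97 ± 0.219 CPM, the GABA receptor subunit GABRA3 3.72 ± 0.235 CPM and ABCB1, the efflux pump P-glycoprotein, 2.86 ± 0.691 CPM. None of these 5 genes had a control count in any library, and they were at least 60.3-, 59.0-, 117-, 87.7- and 67.4-fold higher against the same floor. Among secreted proteins, the fibrillar collagen COL11A1 reached 2.68 ± 0.586 CPM and the chemokine CXCL11 2.74 ± 0.259 CPM. PIWIL1, which binds piRNAs in the germline, reached 1.11 ± 0.0886 CPM.

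Pseudogenes of BNIP3, picked after their values were seen, were among the genes on in the knockout only. Of 44 such pseudogenes in the table, 35 had at most 2 control counts and 7 of these were on, where the share over all genes with so few control counts was 0.689%. They were BNIP3P4, BNIP3P9, BNIP3P10, BNIP3P16, BNIP3P22, BNIP3P28 and BNIP3P30, copies of a mitophagy gene that lie on chromosome 19 except BNIP3P4 on chromosome 9, and BNIP3P16 reached 1.06 ± 0.0474 CPM; reads shared with other copies make their levels uncertain. The long non-coding RNAs LINC01224 and LINC01535, both on chromosome 19, reached 16.6 ± 0.957 CPM and 12.8 ± 1.09 CPM.

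FAM133A (ENSG00000179083, X chromosome), a gene of poorly known function, went the other way, from 30.6, 28.0 and 29.9 CPM in control libraries to 0, 1 and 0 counts in the knockout. The control level was 2808 times the knockout level per effective library size, with a counting interval of 503 to 110968. KCNQ5 (ENSG00000185760, chromosome 6), a potassium channel of the M current, went from 1.23, 1.77 and 1.85 CPM in control libraries to 0, 1 and 0 counts, a ratio of 154 with an interval of 27.1 to 6126. The only count of each gene in the knockout came from replicate 2, the deepest library, and without it the fitted log2 fold changes moved from -10.94 to -12.42 and from -6.75 to -8.24. A rule by CPM gave a smaller imbalance in the same direction: 208 genes went from under 0.1 to at least 1 CPM, 131 of them neither zinc finger named nor clustered protocadherins, and 10 went from at least 1 to under 0.1 CPM.

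**Figure D2:**
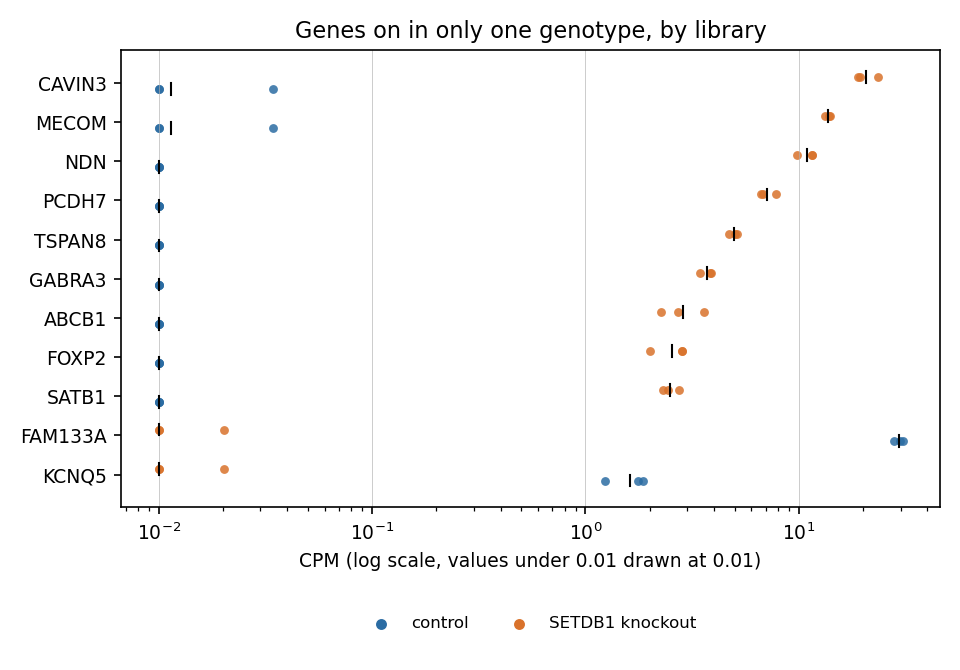
CPM in each library (x axis, log scale, values under 0.01 drawn at 0.01) of 11 genes on in a single genotype. Blue points are the 3 control and orange points the 3 knockout libraries, and the black tick is the mean. The upper 9 genes are at or under 1 count in each control library and at 2.01 to 23.6 CPM in knockout libraries, and FAM133A and KCNQ5 show the reverse.

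Non-coding RNAs were examined by type. Long non-coding RNAs act by many routes, among them the recruitment of chromatin proteins and effects of their transcription on a neighbouring gene, and most have no known role. Of 1364 long non-coding RNAs tested, 181 (13.3%) were at least 2-fold higher and 84 (6.16%) at least 2-fold lower, against 9.86% and 4.85% of all genes tested. Their median log2 fold change was 0.0090, and that of all genes 0.0038. RNAs named LINC, which lie between genes, had a median of 0.15 over 276 tested, with 61 (22.1%) higher and 14 (5.07%) lower by 2-fold and 29 at least 8-fold higher. RNAs named as antisense had a median of -0.033 over 610 tested, with 63 higher and 43 lower, and divergent RNAs of -0.030 over 246, with 24 higher and 9 lower. The RNAs named after a zinc finger gene leaned most to higher values, with 19 of 46 higher and 1 lower. Of the 1364 RNAs, 39 had a control mean under 0.1 CPM and thus entered the test only through the knockout, among them 21 of the LINC RNAs and 8 of those named after zinc finger genes.

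The share of all counts that fell on long non-coding RNAs was 0.880%, 0.894% and 0.848% in control and 1.07%, 1.04% and 1.01% in knockout libraries. The knockout libraries were all higher, and the exact permutation test gave a two-sided p of 0.1, the smallest that 3 against 3 libraries allow. A share of counts is weighted to abundant RNAs. The well studied non-coding RNAs described below, MALAT1 and NEAT1 among them, took a mean of 0.392% of counts in control and 0.490% in knockout libraries. The direction differed by chromosome. Of the 84 RNAs at least 2-fold lower, 24 lay on chromosome 2, where the median log2 fold change of 1049 tested genes of every type was -0.54, and of the 181 higher ones 31 lay on chromosome 12, where it was 0.37 over 854 genes. The part of these shifts in the non-coding changes was not tested.

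LINC00665 (ENSG00000232677, chromosome 19), which lies among zinc finger genes, was measured at 0.680, 0.497 and 0.687 CPM in control and 84.6, 82.5 and 85.7 CPM in knockout libraries. No control library reached 1 CPM, and the log2 fold change was 7.04, SE 0.10, adjusted p 1.10e-28. LINC02582 was measured at 1.83, 1.21 and 1.31 CPM in control and 63.4, 63.3 and 60.8 CPM in knockout libraries (5.42, SE 0.09, adjusted p 1.41e-26, where the leading value is the log2 fold change, here and in later parentheses of this form). LINC01447 rose from 0.754 ± 0.150 to 17.2 ± 0.378 CPM and LINC01559 from 1.93 ± 0.236 to 25.6 ± 0.952 CPM. In each of these RNAs the genotypes did not overlap, a condition of naming them.

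NECTIN3-AS1 (ENSG00000242242, chromosome 3) was measured at 0.977, 0.718 and 0.824 CPM in control and 77.7, 75.6 and 71.7 CPM in knockout libraries, a log2 fold change of 6.46, SE 0.10, adjusted p 4.87e-28. NECTIN3, the adhesion gene it is named after, was measured at 85.4, 78.1 and 84.2 CPM in control and 47.4, 43.9 and 44.0 CPM in knockout libraries (-0.88, SE 0.05, adjusted p 1.35e-14). The antisense RNA and its partner moved in opposite directions, each without overlap between genotypes, which the choice required of the antisense RNA.

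In other pairs both moved alike. SSTR5-AS1 rose from 0.389 ± 0.0494 to 5.45 ± 0.387 CPM and SSTR5, a somatostatin receptor, from 0.156 ± 0.0990 to 2.78 ± 0.101 CPM. ZNF571-AS1 rose from 0.263 ± 0.0875 to 3.68 ± 0.161 CPM and ZNF571 from 1.29 ± 0.195 to 22.9 ± 0.794 CPM. MSC-AS1 fell from 4.55 ± 0.966 to 0.635 ± 0.305 CPM and MSC, a helix-loop-helix transcription factor, from 11.9 ± 1.97 to 0.866 ± 0.144 CPM. PDE7B-AS1 fell from 1.70 ± 0.374 to 0.374 ± 0.153 CPM and PDE7B, a phosphodiesterase, from 26.9 ± 1.98 to 9.51 ± 0.0661 CPM. Over all pairs, 52 antisense RNAs were at least 2-fold higher, and 25 of their partners were too while none was at least 2-fold lower; of the partners of 41 lower antisense RNAs, 13 were lower and none higher by that measure. Where the antisense RNA passed neither threshold, 13 partners were higher and 11 lower of 481. The libraries were stranded, but the strand setting of the counting is not given in the sources used here, so reads from a gene and from its antisense RNA may not be told apart.

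Among RNAs that fell, TEX41 (chromosome 2), a long intergenic RNA, was measured at 8.03, 7.40 and 7.83 CPM in control and 0.655, 0.406 and 0.624 CPM in knockout libraries (-3.89, SE 0.17, adjusted p 1.06e-17). LINC00632 (X chromosome), the host transcript of the circular RNA CDR1as, was measured at 11.7, 13.7 and 13.9 CPM in control and 2.44, 2.11 and 1.20 CPM in knockout libraries (-2.74, SE 0.14, adjusted p 1.08e-13). The highest knockout library stayed well below the lowest control library for both. NCKAP5-AS2, also on chromosome 2, fell from 3.09 ± 0.366 to 0.167 ± 0.0885 CPM, and its partner NCKAP5 from 14 ± 0.541 to 3.59 ± 0.444 CPM. LINC01322 fell from 3.14 ± 0.372 to 0.744 ± 0.311 CPM.

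**Figure D3:**
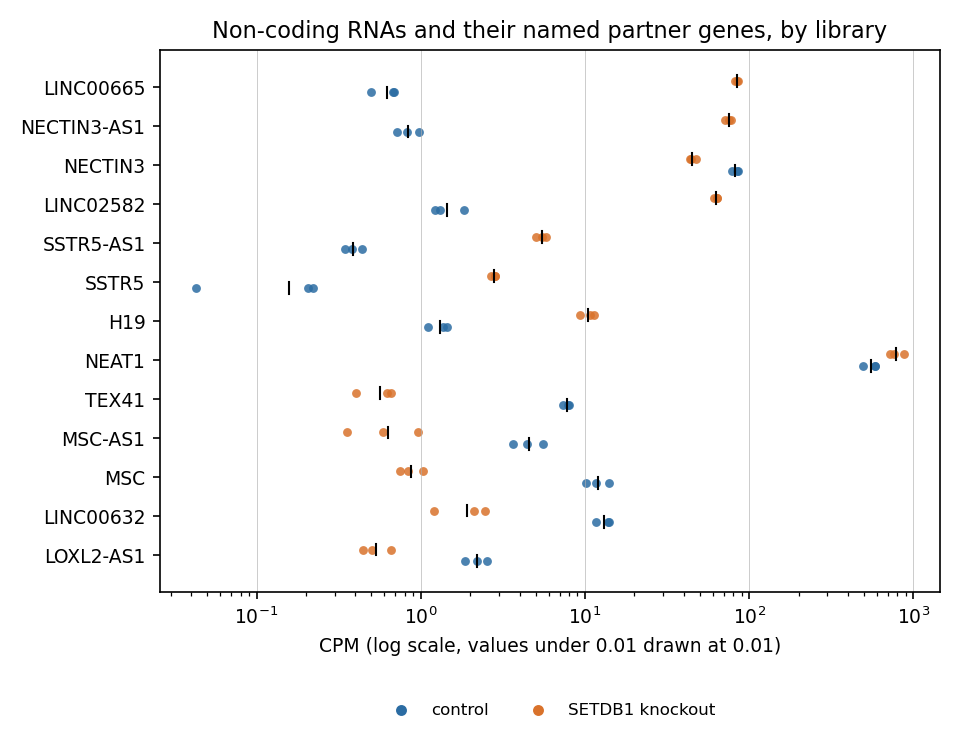
CPM in each library (x axis, log scale) of long non-coding RNAs and the genes some of them are named after. Blue points are the 3 control and orange points the 3 knockout libraries, and the black tick is the mean. NECTIN3-AS1 is higher and NECTIN3 lower in the knockout, while SSTR5 and MSC move with their antisense RNAs.

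A list of 67 well studied non-coding RNAs was described as a whole. Of 54 tested, 21 rose and 17 fell at an adjusted p under 0.05, near the 32.8% and 30% of all genes. Of these, 7 were at least 2-fold higher and none was at least 2-fold lower by edgeR (adjusted or unadjusted), DESeq2 or limma voom, and the median log2 fold change was -0.034. H19, the imprinted RNA expressed beside IGF2 in the fetus, was measured at 1.44, 1.10 and 1.37 CPM in control and 9.30, 10.8 and 11.4 CPM in knockout libraries (2.99, SE 0.14, adjusted p 5.25e-17). NEAT1, the scaffold of paraspeckles, rose from 554 ± 49.7 to 788 ± 83.0 CPM and MALAT1, an abundant RNA of nuclear speckles, from 1736 ± 109.8 to 2421 ± 92.0 CPM. HOXA11-AS and HOTAIR, from the HOX clusters, rose from 0.268 ± 0.128 to 0.994 ± 0.200 and from 0.364 ± 0.0283 to 0.859 ± 0.153 CPM. MIR17HG, the host of an oncogenic microRNA cluster, fell from 14.4 ± 1.15 to 7.70 ± 0.429 CPM, and the snoRNA host SNHG1 from 141 ± 4.17 to 85.4 ± 4.59 CPM.

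Small RNAs leaned the other way. These RNAs include the snoRNAs that guide chemical changes of ribosomal RNA, and a total RNA kit recovers only part of them. Of 104 small and other structural RNAs tested, 2 were at least 2-fold higher (4 without control replicate 1) and 14 lower, with a median of -0.43. Of 30 C/D box snoRNAs, 2 rose and 15 fell at an adjusted p under 0.05, 9 of them by at least 2-fold, with a median of -0.67. Of 36 H/ACA box snoRNAs, 5 rose and 7 fell, 2 of them by at least 2-fold, with a median of -0.16. Over all genes tested, 32.8% rose and 30% fell at that threshold. The share of H/ACA box snoRNAs that fell was thus below that of all genes. SNORD93 was measured at 0.510, 0.552 and 0.824 CPM in control and 0.131, 0.122 and 0.178 CPM in knockout libraries. It rested on few reads, as 3 counts amount to 0.0609 to 0.134 CPM in the knockout libraries. SCARNA6, of chromosome 2, was measured at 8.24, 8.0 and 9.03 CPM in control and 3.27, 3.17 and 3.21 CPM in knockout libraries. The log2 fold changes of SNORD93 and SCARNA6 were -2.20 (SE 0.40) and -1.40 (SE 0.11). Without chromosomes 2 and 12, 9 of the 14 lower RNAs remained. SNORD3A, the U3 snoRNA, was measured at 1217, 2226 and 2081 CPM in control and 698, 1133 and 1097 CPM in knockout libraries, and the genotypes did not overlap. Its log2 fold change of -0.91 had an adjusted p of 0.0752 in edgeR, while DESeq2 and limma voom gave 9.51e-03 and 9.33e-05, and edgeR gave 0.0336 without control replicate 1 and 0.133 to 0.190 without each of the other 5 libraries. The share of counts on small RNAs was 0.163%, 0.271% and 0.252% in control and 0.118%, 0.166% and 0.156% in knockout libraries (exact permutation p 0.2), so the genotypes overlapped.

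Pseudogenes gave 88 higher (9.09%) and 54 lower (5.58%) of 968 tested, near the background of all genes, with a median of -0.14. Those named after zinc finger genes stood at 15 higher of 23 tested, of which 13 had a control mean under 0.1 CPM, as did 32 of the 968.

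Protein-coding changes were then described in 26 functional classes, counted at 2-fold and an adjusted p under 0.05. Among 12634 protein-coding genes outside the zinc finger and clustered protocadherin families, 8.20% were higher and 4.38% lower by that measure. Genes that passed the filter on low counts only through the knockout had to differ, so the number of class members with a control mean under 0.1 CPM is given where it is above 2. Over all genes, the share at least 2-fold higher fell from 20% between 0.1 and 1 CPM in control to 0.754% at 100 CPM or more. Classes were not matched for expression level, and its part in their differences was not tested.

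Secreted products of glands and mucosa were mostly higher. Of 12 tested genes among the mucins, secretoglobins and trefoil factors, 10 were at least 2-fold higher and none lower by edgeR, at an unadjusted p under 0.05 either, or by DESeq2 or limma voom (median 3.43), and 3 of the 12 had a control mean under 0.1 CPM. The list held 42 genes, and the others were too low to be tested. MUC5B, a gel-forming airway mucin, was measured at 8.88, 10.9 and 10.4 CPM in control and 148, 137 and 125 CPM in knockout libraries (3.77, SE 0.07, adjusted p 3.85e-21). MUC13, a membrane mucin, was measured at 5.56, 5.96 and 5.12 CPM in control and 67.2, 62.6 and 65.8 CPM in knockout libraries (3.56, SE 0.07, adjusted p 3.16e-25). The genotypes were far apart for both. AGR2, a disulfide isomerase needed to fold mucins, rose from 268 ± 22.1 to 979 ± 37.4 CPM.

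Plasma proteins moved the same way. Of 37 genes of coagulation, complement and other liver secreted proteins, 15 (40.5%) were higher and 1 (2.70%) lower by 2-fold, with a median of 0.69. C3, the central complement component, was measured at 18, 18.2 and 19.3 CPM in control and 115, 118 and 113 CPM in knockout libraries (2.64, SE 0.05, adjusted p 4.45e-25). No knockout library came near the control range. Ceruloplasmin (CP) rose from 13.8 ± 0.476 to 88.8 ± 4.28 CPM and the iron scavenger LCN2 from 0.728 ± 0.293 to 20.6 ± 0.874 CPM, and APOC1, an apolipoprotein, was the only member at least 2-fold lower, from 9.82 ± 0.764 to 2.39 ± 0.245 CPM.

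In bulk RNA, fewer cells that make a transcript and less of it per cell cannot be told apart, here and in what follows.

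Proteases and their inhibitors had 31 of 88 genes higher and 9 lower (median 0.59), with 4 members under 0.1 CPM in control. The cystatin CST1 rose from 0.380 ± 0.0918 to 22.2 ± 0.943 CPM, the cortisol carrier SERPINA6 from 0.960 ± 0.187 to 13.9 ± 0.781 CPM and the metalloprotease ADAM12 from 1.46 ± 0.424 to 15.1 ± 0.689 CPM. SERPINI1, a neuronal serpin, fell from 3.59 ± 0.246 to 0.177 ± 0.0461 CPM and ADAMTS12 from 17.5 ± 1.34 to 1.60 ± 0.138 CPM.

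Cytokines and chemokines were more often higher than lower, with large single falls. Of 32 tested, 11 (34.4%) were higher and 4 (12.5%) lower by 2-fold, with a median of 0.49, and 3 had a control mean under 0.1 CPM. CX3CL1 (fractalkine) rose from 0.143 ± 0.0198 to 2.59 ± 0.622 CPM. CXCL5, which attracts neutrophils, was measured at 121, 99.6 and 107 CPM in control and 18, 14.7 and 13.4 CPM in knockout libraries (-2.84, SE 0.10, adjusted p 3.36e-10), and the macrophage growth factor CSF1 fell from 45.8 ± 1.96 to 10.7 ± 0.614 CPM.

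Growth factors and morphogens were the class in which lower genes outnumbered higher ones by most: 20 of 76 (26.3%) were lower and 13 (17.1%) higher, with a median of -0.22. RSPO3, which raises WNT signalling at the receptor, was measured at 74.1, 60.7 and 67.1 CPM in control and 1.27, 1.16 and 1.16 CPM in knockout libraries (-5.83, SE 0.10, adjusted p 1.90e-25). FST (follistatin), which binds activin, was measured at 28.4, 28.2 and 25.3 CPM in control and 0.524, 0.690 and 0.980 CPM in knockout libraries (-5.23, SE 0.12, adjusted p 1.63e-23). Both were reduced to a few percent of control in every knockout library. GREM1, an antagonist of bone morphogenetic proteins, fell from 31.8 ± 0.995 to 2.74 ± 0.217 CPM and the WNT inhibitor DKK1 from 311 ± 6.59 to 89.1 ± 3.43 CPM. WNT9A rose from 1.92 ± 0.104 to 23 ± 1.03 CPM and FGF12, an intracellular member of the FGF family, from 0.644 ± 0.198 to 13.5 ± 0.662 CPM.

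Receptors and channels changed in both directions, at about the same rate each way. Of 120 ion channel genes, 21 were higher and 23 lower, and of 102 G protein-coupled receptors 15 were higher and 19 lower, with 3 members of each class under 0.1 CPM in control. Without genes of chromosomes 2 and 12, 15 lower ion channel genes remained. DRD1, the dopamine D1 receptor, was measured at 14.7, 14.2 and 13.8 CPM in control and 0.218, 0.142 and 0.223 CPM in knockout libraries (-6.27, SE 0.17, adjusted p 3.18e-22). S1PR3, a sphingosine phosphate receptor, was measured at 76.2, 71.9 and 74.6 CPM in control and 10.6, 12 and 11.3 CPM in knockout libraries (-2.70, SE 0.06, adjusted p 3.82e-24). Neither showed any overlap, a condition of naming genes within a class. CACNG7, a regulator of AMPA receptors, fell from 7.42 ± 0.612 to 0.621 ± 0.00919 CPM, while SCNN1A, a subunit of the epithelial sodium channel, rose from 5.84 ± 1.31 to 28.4 ± 1.76 CPM and the cation channel TRPC6 from 3.46 ± 0.324 to 18.3 ± 0.793 CPM.

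Adhesion genes gave large single changes in both directions. Of 33 neuronal adhesion genes and synapse organisers, 5 were higher and 6 lower. NRCAM, a cell adhesion molecule of axons, was measured at 305, 288 and 295 CPM in control and 3.71, 3.53 and 2.72 CPM in knockout libraries (-6.45, SE 0.07, adjusted p 3.18e-31). CNTN1 (contactin), of the same immunoglobulin superfamily and carried on chromosome 12, was measured at 300.1, 284 and 285 CPM in control and 1355, 1273 and 1309 CPM in knockout libraries (2.18, SE 0.04, adjusted p 2.09e-25). Both were abundant in control cells and moved in opposite directions. Of 27 cadherins outside the protocadherin clusters, 9 were higher and 3 lower; CDH6 rose from 0.646 ± 0.209 to 15.6 ± 0.614 CPM and the desmosomal DSC2 from 5.09 ± 0.588 to 28.5 ± 2.33 CPM, and CDH4 fell from 47.3 ± 4.39 to 8.22 ± 0.685 CPM. CDH5, the cadherin of endothelium, rose from 0.289 ± 0.0835 to 4.53 ± 0.670 CPM without the other endothelial markers reaching 1 CPM.

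Axon guidance genes had 12 of 55 higher and 5 lower, with 4 under 0.1 CPM in control; the ephrin receptor EPHA4 rose from 1.12 ± 0.379 to 16.2 ± 0.408 CPM and the semaphorin SEMA3B from 11 ± 1.49 to 56.5 ± 2.67 CPM. Collagens and laminins had 8 of 37 higher and 6 lower. COL21A1 rose from 2.38 ± 0.278 to 23.1 ± 1.71 CPM, and COL4A6, of basement membranes, fell from 103 ± 5.25 to 32.0 ± 0.894 CPM.

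Transporters and metabolic enzymes differed by class. Of 246 solute carriers, 28 (11.4%) were higher and 13 (5.28%) lower, near the background, with 5 under 0.1 CPM in control. SLC16A7, a carrier of pyruvate and lactate on chromosome 12, was measured at 0.552, 0.662 and 0.584 CPM in control and 44.3, 41.8 and 41.3 CPM in knockout libraries (6.15, SE 0.11, adjusted p 4.54e-26). Of 83 drug and steroid metabolising enzymes, 17 were higher and 6 lower, 5 having a control mean under 0.1 CPM; CYP3A5 rose from 13.5 ± 0.184 to 39.4 ± 1.24 CPM, and CYP4F11, a hydroxylase of vitamin K and fatty acids, was measured at 78.5, 81.1 and 79.3 CPM in control and 2.36, 2.56 and 2.32 CPM in knockout libraries (-5.02, SE 0.07, adjusted p 3.04e-28). Among 35 ABC transporters, 8 were higher and 5 lower, of which 5 and 3 remained without chromosomes 2 and 12, and ABCG2, the drug efflux pump, fell from 169 ± 2.73 to 72.0 ± 0.674 CPM.

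Of 151 developmental transcription factors, 34 (22.5%) were higher and 17 (11.3%) lower, and 6 had a control mean under 0.1 CPM. Without chromosomes 2 and 12, 10 of the lower ones remained. HNF4G, a nuclear receptor of liver and gut, was measured at 0.977, 0.773 and 0.687 CPM in control and 16.7, 16.8 and 16.5 CPM in knockout libraries (4.36, SE 0.13, adjusted p 2.73e-21). FOXA1, a pioneer factor of endoderm, was measured at 16.3, 17.3 and 16.1 CPM in control and 71.4, 75.3 and 75.2 CPM in knockout libraries (2.16, SE 0.06, adjusted p 1.56e-22). SOX6 rose from 1.82 ± 0.106 to 12.7 ± 0.797 CPM, and TBX3 fell from 31.9 ± 0.922 to 9.08 ± 0.661 CPM. For each of these 4 genes the genotypes did not overlap, a condition of naming genes within a class.

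Replication-dependent histone genes, most of which lie in a cluster on chromosome 6, moved in small steps, and mostly down. At an adjusted p under 0.05, 37 of 54 fell and 8 rose, against 30% and 32.8% of all genes, with a median of -0.41. H1-3 fell from 348 ± 15.5 to 193 ± 4.14 CPM. Against this, H2BC9 was measured at 0.212, 0.166 and 0.240 CPM in control and 20.3, 20.6 and 23.4 CPM in knockout libraries (6.62, SE 0.17, adjusted p 4.88e-23), and H1-5 rose from 20.9 ± 1.35 to 113 ± 3.90 CPM.

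Housekeeping classes had few changes of 2-fold. At an adjusted p under 0.05, 62.8% of all genes were called, 32.8% higher and 30% lower. The shares called in either direction were near 62.8% for the mitochondrial ribosomal, respiratory chain and cholesterol genes. The split between directions was less even in these classes than over all genes. Of 81 cytosolic ribosomal protein genes, 46 fell and 14 rose (median -0.13); of 76 mitochondrial ribosomal protein genes, 43 fell and 5 rose (median -0.16); of 80 nuclear-encoded respiratory chain genes, 32 fell and 15 rose (median -0.076). Of the 13 mitochondrially encoded protein genes, 10 fell (median -0.35). Of 25 genes of cholesterol synthesis and uptake, 15 rose and 2 fell (median 0.31). In these 5 classes a single gene, RPS27L, changed by 2-fold, and it fell from 213 ± 15.4 to 104 ± 2.14 CPM. Neither DESeq2 nor limma voom called a gene at least 2-fold higher in any of the 5 classes, or at least 2-fold lower in the 4 classes other than that of RPS27L, and edgeR gave none at an unadjusted p under 0.05 either. Of 21 glycolysis genes, 11 fell and 5 rose; PFKFB3, a regulator of glycolytic flux, was the only one past 2-fold and fell from 427 ± 19.1 to 163 ± 11.1 CPM. Small GTPase regulators (9 higher and 7 lower by 2-fold of 93), stress response genes (1 and 4 of 27) and immediate early genes (3 and 1 of 24) had medians of -0.031, 0.099 and 0.089. Of 378 olfactory receptor genes, 310 had no count in any library and 2 were tested.

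**Figure D4:**
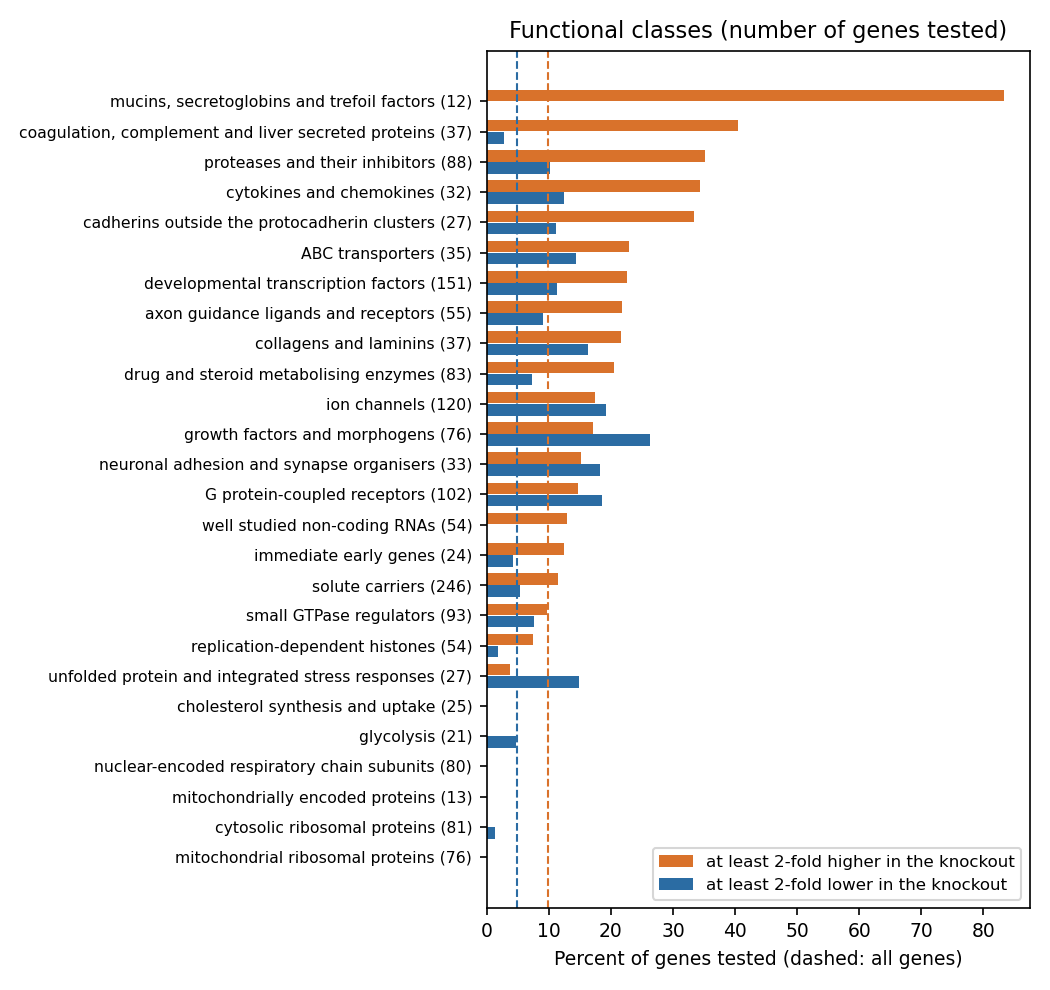
Percent of the tested genes of each class that were at least 2-fold higher (orange) or lower (blue) in the knockout at an adjusted p under 0.05, with the number tested in parentheses. Dashed lines give all genes tested (9.86% and 4.85%). Mucins and plasma proteins lead the higher side, growth factors the lower side, and ribosomal and respiratory classes sit near 0; the well studied non-coding RNAs are drawn as well, and olfactory receptors are not.

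The largest differences in absolute level came from few genes. The 1751 genes at least 2-fold higher gained 32456 CPM in sum, of which the leading 10 genes made 33.6% and zinc finger genes 14.6%, and the 862 lower genes together fell by 19463 CPM, of which 10 genes made 40.3%. KRT8 and KRT18, the paired keratins of simple epithelia, both on chromosome 12 and both counted in the epithelial marker sum, rose from 2271 ± 139 to 6594 ± 261 and from 779 ± 1.60 to 2583 ± 112 CPM. KRT81, a hair keratin of the same chromosome, fell from 2490.2 ± 197 to 821 ± 43.0 CPM. CPLX2, which controls vesicle fusion at synapses, was measured at 1469, 1498 and 1486 CPM in control and 141, 149.6 and 160.4 CPM in knockout libraries (-3.30, SE 0.05, adjusted p 1.91e-28). AKR1B10 and AKR1C2, aldo-keto reductases that A549 cells make in abundance, of which AKR1B10 is also in the epithelial marker sum, fell from 4845 ± 124 to 2642 ± 35.5 and from 2882 ± 93.2 to 1325 ± 5.88 CPM.

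How the changes depended on expression level was examined in 5 bins of mean control CPM. Of the 38852 genes with any count, 15234 had a control mean under 0.1 CPM, and only 324 of these were tested; all 324 were at least 2-fold higher, as the filter on low counts required them to be high in the knockout. Between 0.1 and 1 CPM, 3212 genes were tested, of which 641 (20%) were at least 2-fold higher and 234 (7.29%) lower; the lower count was 409, 362 and 393 without knockout replicates 1, 2 and 3. These 3212 were part of 9387 genes in that bin, and the balance depended on the filter on low counts: with no filter, 819 were higher and 770 lower. Between 1 and 10 CPM, 561 (11.2%) of 5022 were higher and 367 (7.31%) lower. All genes above 1 CPM in control were tested, so the filter did not shape the bins from there on. Between 10 and 100 CPM, 212 (2.83%) of 7485 were higher and 200 (2.67%) lower. At 100 CPM or more, 13 (0.754%) of 1724 were higher and 61 (3.54%) lower.

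From 1 CPM upwards, where the filter played no part, the balance between higher and lower genes turned from an excess of higher genes between 1 and 10 CPM to an excess of lower genes at 100 CPM or more, and the median log2 fold change of the top bin was -0.14. Leaving out zinc finger named and clustered protocadherin genes gave 590 higher and 233 lower genes between 0.1 and 1 CPM, 450 and 366 between 1 and 10 CPM, 182 and 200 between 10 and 100 CPM and 13 and 61 at 100 CPM or more, so that the turn came a bin earlier. These bins use the control values that also enter the fold change, and other ways of binning were therefore compared. When genes were binned by control replicate 1 and the fold was taken from the other 5 libraries, 679 were higher and 338 lower between 0.1 and 1 CPM, and 15 and 57 at 100 CPM or more.

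Binning by mean knockout CPM gave another picture. Between 0.1 and 1 CPM, 299 genes were higher and 456 lower, and at 100 CPM or more 61 were higher and 21 lower. Between these, 847 were higher and 242 lower from 1 to 10 CPM, and 544 and 123 from 10 to 100 CPM. Bins of the mean over all 6 libraries gave 498 higher and 330 lower genes between 0.1 and 1 CPM, 801 and 319 between 1 and 10 CPM, 413 and 168 between 10 and 100 CPM and 39 and 45 at 100 CPM or more. An excess of higher genes between 1 and 10 CPM was found under each way of binning, and at the ends of the range the direction depended on which genotype set the bins.

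**Figure D5:**
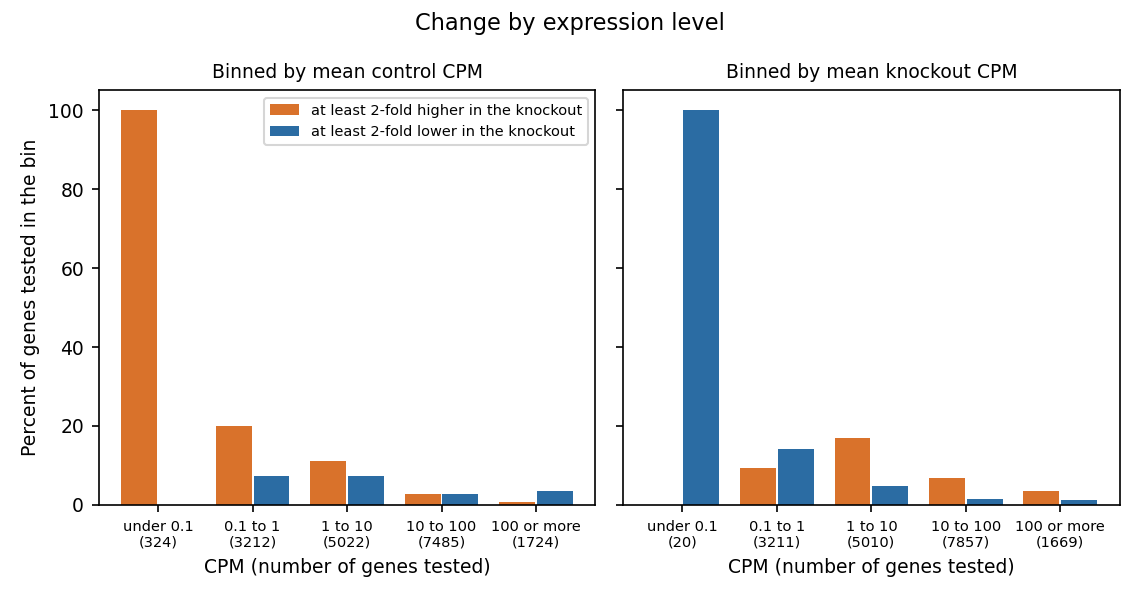
Percent of tested genes at least 2-fold higher (orange) or lower (blue) in the knockout, in bins of mean control CPM (left) and of mean knockout CPM (right), with the number of genes tested in parentheses. On the left, lower genes outnumber higher ones only at 100 CPM or more, and on the right only under 1 CPM.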

How the data were processed

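RNA-seq counts per gene were analysed as deposited by the authors, whole numbers with no scaling, in 3 control and 3 knockout libraries. Per the labels' protocols, RNA was extracted with RNeasy columns, treated with Turbo DNase and made into libraries with a TruSeq stranded total RNA kit. Per the submitters' processing notes, STAR 2.6.1c, edgeR 3.30.0 and hg19 were used, with no role stated; the counter, its annotation and its strand setting are not given in the sources used here. Of 62486 gene IDs, 40674 had a symbol and 39166 a type in RefSeq (GRCh38.p14), which also gave chromosomes and gene order.

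Genes passing filterByExpr were tested with edgeR 4.0.16 (R 4.3.3; TMM scaling, robust quasi-likelihood test, genotype as the only term, all 6 libraries), with Benjamini-Hochberg adjustment over 17767 genes. An adjusted p printed without a tool comes from this test. CPM were computed from effective library sizes, and a mean is given with ± 1 SD (n = 3 libraries). Values in parentheses after library values are the log2 fold change of knockout over control, its standard error (SE) and the adjusted p. On simulated counts for 17366 genes the test recovered 58 of 65 genes changed by 1 on the log2 scale, 61 of 61 changed by 2 and 67 of 67 changed by 3, and 4.62% of its calls were false. The simulation gave every gene the same dispersion and changed few genes, unlike these data, so its rates may not hold for them. No pair of libraries within a genotype matched to within sampling noise. Exact permutation tests were two-sided. DESeq2 1.42.0 and limma voom (limma 3.58.1) were alternatives, with other scalings and filters, a replicate block, each library left out, other rules for on and off, and other bins.

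Members and lists were chosen with earlier results of these data known. Named genes were SETDB1, the 12 largest changes each way without overlap between genotypes (mean of at least 1 CPM and at least 10 counts in the lower group), the 3 largest each way per class, the 12 highest genes on in a single genotype, the 8 largest non-coding changes each way with the sense partners of antisense RNAs, the well studied non-coding RNAs and the 8 largest differences in CPM each way; a part of these is printed. The picks per class and the 8 largest non-coding changes met the same conditions of level and overlap. Their lack of overlap was thus fixed by the choice. Genes on in the knockout only that fall outside the naming rule, marker genes and snoRNAs were chosen after their values were seen. Binning by knockout CPM, equal depth and leaving out chromosomes 2 and 12 were also added after seeing the data. Promoter windows were read from the RefSeq table by symbol.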

Additional observations from a re-analysis of the deposited data

How the results depend on the processing

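Of 5331 recomputed values, 5155 kept their direction and their side of the threshold or stayed within 1.5 times the count first given, as did 797 of 832 for the functional classes. With no filter on low counts, 4020 genes passed 2-fold (1394 lower) and 1139 passed 8-fold (931 higher, 208 lower); long non-coding RNAs gave 299 higher and 147 lower, small RNAs 12 and 29, pseudogenes 198 and 151, and the bins under 0.1 CPM 963 higher and 40 lower, with 770 lower between 0.1 and 1 CPM. A filter of 1 CPM in 3 libraries, which tests fewer genes, gave 46 lower long non-coding RNAs, 8 lower small RNAs, 50 higher and 15 lower pseudogenes, 193 higher genes under 0.1 CPM and 408 higher and 0 lower between 0.1 and 1 CPM. Leaving out chromosomes 2 and 12 left 9 lower small RNAs. Bins by the mean over all 6 libraries held 0 higher genes under 0.1 CPM, 413 between 10 and 100 CPM and 39 at 100 CPM or more, and bins by control replicate 1 held 2 lower genes under 0.1 CPM. Bins by knockout CPM, from lowest to highest, held 0, 299, 847, 544 and 61 higher and 20, 456, 242, 123 and 21 lower genes.

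With off set at 0 counts, 134 genes were on in the knockout only and 0 in the control only; with on set at 30 counts these were 124 and 1. With on set at 1 CPM, 139 were on in the knockout only; with at most 2 counts in every library 7, and at equal depth 5, were on in the control only. Leaving out 1 library at a time gave 234 to 293 genes on in the knockout only, 2 to 9 on in the control only, 2 to 4 higher small RNAs and 291 to 409 lower genes between 0.1 and 1 CPM.

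Of the named genes' 4019 values, 63 lost the call, for 17 genes (AFAP1, AFAP1-AS1, COX6B2, EPB41L4A-AS1, GAS6, GAS6-AS1, HOXA11, LINC00261, LUCAT1, MIR100HG, MRPL54, MT-ND4, MT-RNR1, NDUFS7, SNHG5, SNHG8 and ZFAS1), 12 gained it, for 5 genes (MINCR, SNHG16, SNHG3, SNORD3A and VPS9D1-AS1), and 15 reversed, all at an adjusted p above 0.05. HAGLR went to 0.0031 on the log2 scale with library sizes alone, 0.012 without the filter and 0.029 with the replicate block, and ranged from -0.13 to 0.067 with 1 library left out. SNHG7 went to 0.011 with library sizes alone and 0.020 without the filter, and ranged from -0.046 to 0.022. MEG8 went to 0.00061 without the filter and ranged from -0.16 to 0.046. TUG1 went to -0.023 with upper quartile scaling and ranged from -0.0088 to 0.052. The cause was not tested.

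Libraries of the same number correlated at 0.11, 0.064 and 0.047 in their deviations from the genotype means, and each control library except replicate 3, as well as each knockout library, correlated best with its own number. The numbers were not taken as pairs. With the replicate block, 11655 genes changed, 2625 of them at least 2-fold, and SETDB1 fell by 0.82 on the log2 scale. The block gained the calls of SNORD3A (adjusted p 3.29e-22), MINCR, SNHG16 and SNHG3 and lost those of MT-ND4 and SNHG5. Depth limits the genes on in a single genotype: 3 counts amount to 0.0609 to 0.166 CPM in a library.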
